A study of Mus musculus with 16 samples.

Results

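The mitosis and spindle genes are a set of 41 genes whose products carry a cell from entry into mitosis through chromosome segregation to the cut between the daughter cells. The members were found as non-control probes that carry a listed gene symbol, and all 41 were on the array, with 62 probes among them. Of these, 39 passed the filter on dim probes (Cy5 signal above background on at least 4 of 16 arrays) and stand among 22000 genes and transcripts tested. The other 2 members, Aurkb and Cenpf, were above background on 1 and 3 of 16 arrays and have no test here. For both genes these arrays were all of untreated tumours.

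Mitosis is started by cyclin A and cyclin B bound to the kinase Cdk1, with Plk1 and Aurora A. Chromosomes are then attached to spindle microtubules at their kinetochores, and the spindle checkpoint holds the anaphase-promoting complex (APC/C) in check until every chromosome is attached. Most of these genes are transcribed mainly in late S, G2 and M phase, under the MuvB complex with B-Myb and FoxM1, so their RNA is widely read as a gauge of how many cells of a tissue are dividing. Signalling from mutant BRAF through MEK and ERK drives cyclin D1 and entry into the cell cycle in melanoma cells.

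RNA of 16 mouse melanoma biopsies was set against one pooled mouse reference RNA on 2-colour arrays, with the tumour in Cy5 and the reference in Cy3 on each array. The 4 groups were untreated tumours, tumours given a BRAF inhibitor for 4 days or for 60 days, and tumours that had become resistant at 120 days of treatment, with 4 tumours in each. The name and dose of the drug, the mouse strain, the age and sex of the animals and the genotype of the tumours are not given in the sources used here, and neither is whether the tumours of a group came from separate animals. The p-values therefore measure the spread between these samples. Replicates 3 and 4 of each group lay on slide 1 and replicates 1 and 2 on slide 2. Title codes were STS1 to STS4 at 4 days and RG6 and RG7 at 60 days. They were RG4 and RG5 in resistant tumours and RG9 and RG10 in untreated tumours. The meaning of the codes is not given. No code occurs in more than 1 group, so code and treatment cannot be told apart. Title codes differ between the slides in the 4-day, 60-day and resistant groups, so in those groups code and slide cannot be told apart. Of the untreated tumours, replicates 1, 2 and 3 had RG10 and replicate 4 had RG9.

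The arrays had between 27320 and 30206 probes above background in Cy5, and their median log2 ratios over all genes lay between 0.044 and 0.098. Of 9 measured melanocyte markers, between 6 and 9 in each group were above background on all 4 arrays, and Dct, a pigment enzyme, averaged 5.58 in untreated tumours on the log2 scale against the reference. Hair follicle markers were present as well, and the 17 measured had a median level on each array between 1.27 and 5.15. Resistant replicate 1 had the lowest hair follicle, epidermis and melanocyte levels of all 16 arrays (1.27, 1.36 and 1.37) and the highest macrophage level (2.10). For the hair follicle, untreated replicates 4 and 2 were also low, at 1.47 and 1.83. The RNA was from whole tissue, where fewer cells of a type and less RNA per cell cannot be told apart.

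Members were below the reference RNA in nearly every tumour. Of the 39 measured members, 38 had a log2 ratio below 0 on all 16 arrays, which held for 20.7% of all genes, and the median ratio was -1.72 over the members and 0.086 over all genes. The exception was Prc1, which bundles antiparallel microtubules in the spindle midzone and stood at 0.07 in untreated replicate 1. Such a ratio sets each gene against the same gene in the reference, so it does not rank members by abundance.

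**Figure D1:**
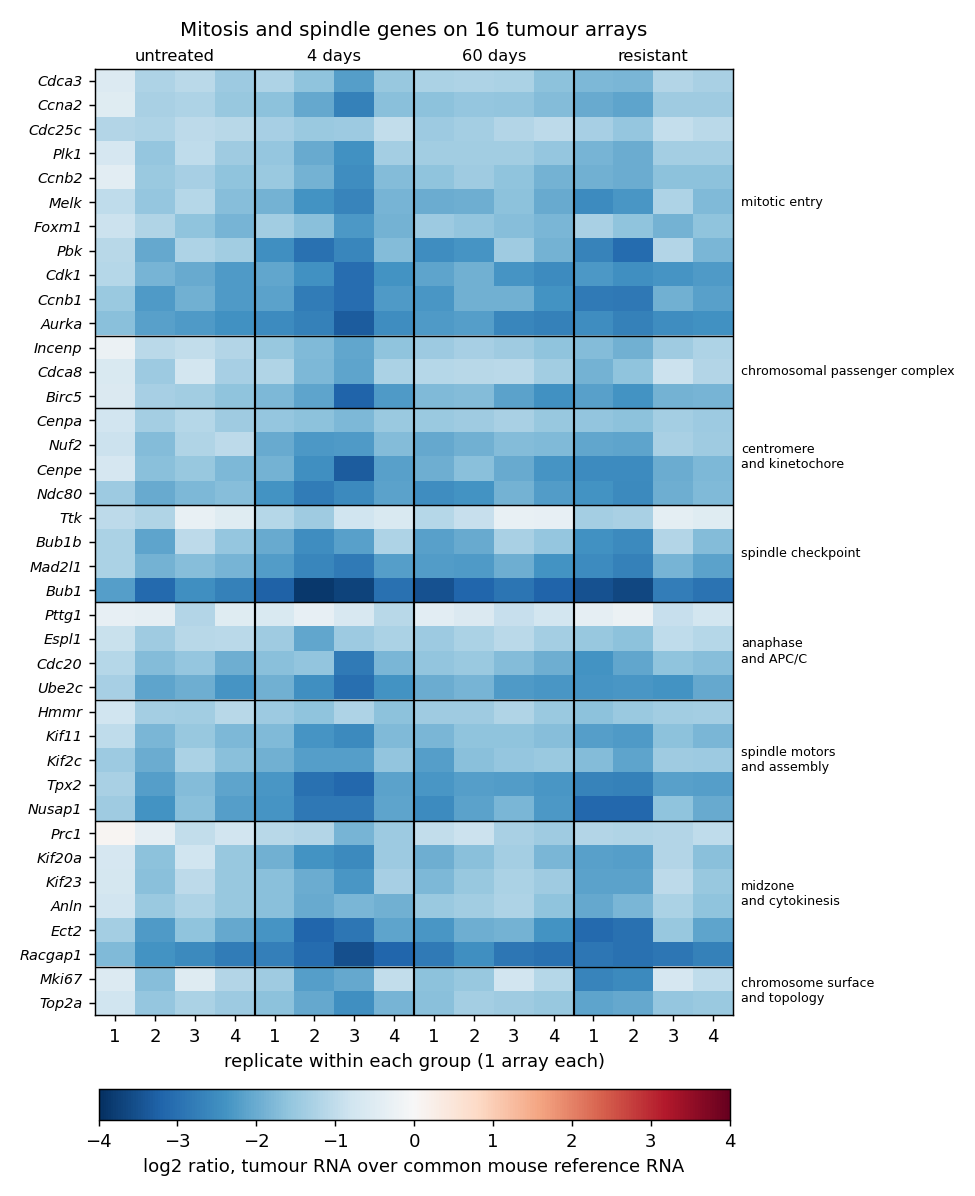
Heat map of the 39 measured members (rows, grouped by role) on 16 arrays (columns, by group and replicate), coloured by the log2 ratio of tumour over reference RNA. Untreated replicate 1 is the palest column in most rows, 4-day replicate 3 is the darkest, and in the resistant group replicates 1 and 2 are darker than 3 and 4.

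The members varied together from tumour to tumour. Over the 16 arrays, the 741 pairs of members had a median Pearson correlation of 0.78, and 0.71 for deviations from the group means. These points share a library and a slide, and the values are a description. The mean over the 39 members was -0.97, -1.68, -1.37 and -1.62 in untreated tumours, -1.81, -2.20, -2.42 and -1.78 at 4 days, -1.84, -1.69, -1.62 and -1.84 at 60 days, and -2.14, -2.19, -1.54 and -1.65 in resistant tumours. All 4 tumours of the 4-day group were below all 4 untreated tumours, whereas the 60-day and resistant groups overlapped with the untreated group. The group averages were -1.41 ± 0.32 untreated, -2.05 ± 0.31 at 4 days, -1.75 ± 0.11 at 60 days and -1.88 ± 0.33 in resistant tumours (SD, n = 4 each). The 60-day tumours lay closest to each other, and the resistant tumours lay in 2 pairs, one pair on each slide. Single tumours set the extremes: untreated replicate 1 was the highest array for 33 of the 39 members, and 4-day replicate 3 was the lowest for 25.

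**Figure D2:**
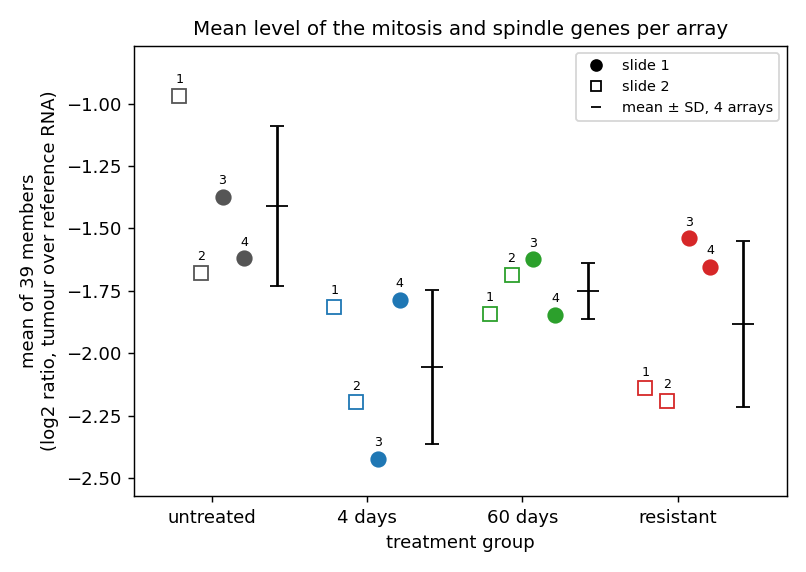
Mean log2 ratio (tumour over reference RNA) of the 39 measured members on each of the 16 arrays, by group, with filled circles for slide 1, open squares for slide 2, digits for the replicate, and bars for the group mean ± SD over 4 arrays. The 4-day tumours lie between -2.42 and -1.78, all below the untreated tumours, and the resistant tumours split by slide.

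Pttg1 was the member least like the rest, with a median Pearson correlation of -0.29 with the other members over 16 arrays. It encodes securin, the inhibitor of separase that the APC/C destroys at the start of anaphase. Its log2 ratio was -0.33, -0.35, -1.17 and -0.48 in untreated tumours, -0.59, -0.32, -0.64 and -1.11 at 4 days, -0.42, -0.57, -0.91 and -0.74 at 60 days, and -0.35, -0.22, -0.91 and -0.75 in resistant tumours. The 4 groups overlapped throughout, and its differences from untreated tumours were the smallest of all members in each comparison, at -0.085, -0.076 and 0.025 for 4 days, 60 days and resistance. The sign of these values turned under several settings given in the closing section. Its probe lies at chr11:43233801-43233860 (array design, build mm9).

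The promoters of the members shared sequence features, which were not part of the rule for members. They are shown because genes of late G2 and M phase are known to carry a cell cycle homology region, or CHR, bound by the MuvB complex, and CCAAT boxes, bound by NF-Y. RefSeq promoter windows of 300 bases (250 before the annotated start to 50 after it, mouse build GRCm38.p6) were at hand for 33 of the 41 members, with 35 windows in all, since Ect2 and Prc1 have 2 each. Aurkb, Ccna2, Cdc25c, Foxm1, Incenp, Kif20a, Pbk and Tpx2 are not among them. The CHR in its first spelling, TTTGAA, searched on both strands, occurred in 26 of 35 member windows (74.3%), against 17.9% of all 32851 windows of the same length. Within 50 bases of the start it occurred in 24 member windows (68.6%) and in 4.94% of all windows. The second spelling, TTCGAA, occurred in 3 member windows (8.57%) and 1.56% of all. CCAAT, also on both strands, occurred in 26 member windows (74.3%) and 37.4% of all, and at 2 or more positions in 17 member windows (48.6%) and 11.7% of all. The first CHR spelling and the box occurred together in 23 member windows (65.7%) and 6.95% of all. One pair of CHR and CCAAT matches in the member windows shared bases. A match of letters describes the window and does not show a bound site.

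The following stretches run 5′ to 3′ along the coding strand, with matches to either CHR spelling or to the CCAAT box in capitals. A match on the opposite strand reads TTCAAA for the first CHR spelling and ATTGG for the box, while the second CHR spelling reads the same on both strands. Ccnb2 (minus strand, chr9:70421545-70421674, bases -120 to 10 from the start) and Mki67 (minus strand, chr7:135716469-135716579, bases -200 to -90) held the most matches among the members whose values are given tumour by tumour. Cdk1 (minus strand, chr10:69352913-69353012), Ube2c (plus strand, chr2:164769829-164769928), Cdc20 (minus strand, chr4:118437344-118437423) and Top2a (minus strand, chr11:99024190-99024309) are shown as further examples, and Pttg1 (minus strand, chr11:43425982-43426081) as a member with no match. These 5 stretches end 1 base before the start and were picked after the matches had been seen.
Ccnb2: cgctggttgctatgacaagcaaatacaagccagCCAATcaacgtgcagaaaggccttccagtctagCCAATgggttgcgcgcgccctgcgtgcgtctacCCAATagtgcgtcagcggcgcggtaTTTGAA
Mki67: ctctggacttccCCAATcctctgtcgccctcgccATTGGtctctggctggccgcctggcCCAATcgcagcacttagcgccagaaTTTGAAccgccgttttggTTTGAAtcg
Cdk1: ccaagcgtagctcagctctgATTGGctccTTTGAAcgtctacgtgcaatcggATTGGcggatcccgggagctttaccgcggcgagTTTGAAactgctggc
Ube2c: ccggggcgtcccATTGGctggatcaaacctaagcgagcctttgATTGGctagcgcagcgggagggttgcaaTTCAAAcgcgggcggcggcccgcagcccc
Cdc20: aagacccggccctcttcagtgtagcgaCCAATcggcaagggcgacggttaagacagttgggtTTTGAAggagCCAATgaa
Top2a: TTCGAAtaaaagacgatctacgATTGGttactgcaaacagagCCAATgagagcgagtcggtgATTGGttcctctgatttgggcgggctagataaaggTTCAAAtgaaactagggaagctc
Pttg1: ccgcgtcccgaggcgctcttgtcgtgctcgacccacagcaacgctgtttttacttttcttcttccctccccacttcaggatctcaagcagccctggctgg
In Ccnb2, CCAAT boxes began at bases -87, -54 and -21 and a CHR at base 5. In Mki67, boxes at bases -188, -166 and -141 were followed by CHR matches at bases -116 and -98. The window of Pttg1 held neither the box nor the first CHR spelling, which says only that these letters are not in that window. The windows of Birc5, Mad2l1, Melk, Nuf2 and Nusap1 held neither as well. These members had 4-day differences of -1.12, -0.79, -0.83, -0.86 and -0.61, against -0.085 for Pttg1. The 23 measured members with TTTGAA in a window had differences between 4-day and untreated tumours from -0.89 to -0.24 log2 with a median of -0.59. The 9 without it had differences from -1.12 to -0.085 with a median of -0.82, which is further from 0.

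**Figure D3:**
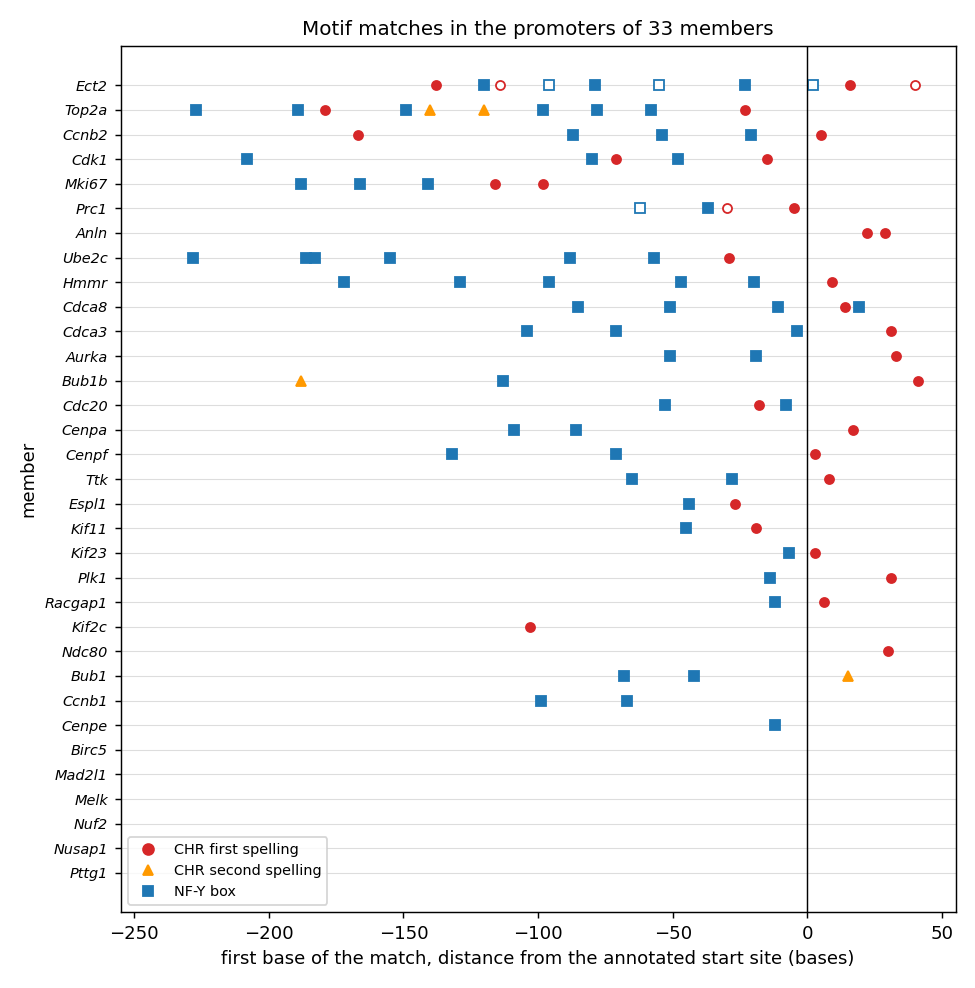
Distance in bases from the annotated start site to the first base of each motif match, for the promoters of 33 members (rows). Red circles are the first CHR spelling, orange triangles the second, and blue squares the CCAAT box bound by NF-Y, with open symbols for the other window of Ect2 and Prc1. Most red circles lie within 50 bases of the start, with the blue squares mainly upstream of them.

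After 4 days of the BRAF inhibitor, every measured member had a mean below that of untreated tumours, and no member passed the test. The differences of the 39 members ran from -1.12 to -0.085 log2 with a median of -0.66, whereas the median over all 22000 genes was -0.0077 and 51.3% of all genes were below 0. With limma and Benjamini-Hochberg adjustment over 22000 genes, 0 members were called at an adjusted p of 0.05 (296 genes, 1.35% of all, were), and the smallest adjusted p was 0.0509. An unadjusted p under 0.05 was reached by 29 members, all lower, against 8.71% of all genes that were lower at that level. The 4-day and untreated tumours did not overlap for 12 members, all lower at 4 days, against 4.19% of all genes. These 12 were Ccna2, Aurka, Melk, Birc5, Incenp, Cenpa, Cenpe, Ndc80, Mad2l1, Prc1, Anln and Top2a. Untreated replicate 1 was high for most members at once, and without it the median was -0.46 with all 39 members below 0.

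The call depended on how the slides were handled. With slide as a block in the fit, 6 members passed, all lower at 4 days, against 1.95% of all genes that passed as lower in that fit. They were Prc1 (-0.89 ± 0.16 SE, adjusted p = 0.0170), Nuf2 (-0.86 ± 0.18 SE, adjusted p = 0.0284), Ndc80 (-0.72 ± 0.16 SE, adjusted p = 0.0360), Birc5 (-1.12 ± 0.26 SE, adjusted p = 0.0367), Incenp (-0.87 ± 0.21 SE, adjusted p = 0.0411) and Racgap1 (-0.74 ± 0.18 SE, adjusted p = 0.0438), with n = 4 against 4 in limma. Leaving out any one 4-day or untreated tumour from that fit, a setting added after the data had been seen, left between 0 and 5 members past the threshold. Between 89 and 1779 genes were then called in all. With slide as a block and median centring in place of loess, also added after the data had been seen, 0 members passed (smallest adjusted p 0.241, 38 genes called in all). Within the slides the median was -0.61 on slide 1 and -0.69 on slide 2, and all 39 members were below 0 on both, where 48.1% and 53.8% of all genes were.

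Among the regulators of mitotic entry, 11 of 11 members were below 0 at 4 days, 9 of them at an unadjusted p under 0.05, with a median of -0.66. Ccnb2 encodes cyclin B2, a partner of Cdk1, and its probe lies at chr9:70255671-70255730 (mm9). It had log2 ratios of -1.49, -1.89, -2.48 and -1.72 at 4 days, against -0.44, -1.49, -1.33 and -1.60 in untreated tumours. The tumour at -1.49 reached into the untreated range, and the difference was -0.68 ± 0.24 (SE, limma adjusted p = 0.185, n = 4 each). Pbk, a mitotic kinase, had the lowest difference of this role at -1.01, and Cdc25c, the phosphatase that activates Cdk1, the highest at -0.17. The Cdc25c probe was above background on 10 of 16 arrays, with 2 of 4 at 4 days against 3 of 4 in untreated tumours. Foxm1, a transcription factor of the G2 and M programme, had a difference of -0.41 and overlapping groups.

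The chromosomal passenger complex corrects faulty attachments and steers cytokinesis, and its 3 measured members differed by -1.12 for Birc5, -0.87 for Incenp and -0.56 for Cdca8. Birc5 encodes survivin and had the largest difference of all members in each comparison with untreated tumours (probe at chr11:117716978-117717037, mm9). Its log2 ratios were -1.80, -2.11, -3.21 and -2.26 at 4 days, against -0.59, -1.33, -1.40 and -1.60 in untreated tumours. The groups did not overlap, and the difference of -1.12 ± 0.28 (SE) was a 2.17-fold difference with an adjusted p of 0.0690 in limma (n = 4 each). Of the 3 probes for Birc5, one other passed the test when all probes were fitted separately, and the 3 gave differences between -1.12 and -0.70.

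Of the centromere and kinetochore genes, the 4 measured members were all below 0 at an unadjusted p under 0.05, with differences from -1.05 to -0.45. Cenpe encodes the kinesin that carries chromosomes to the spindle equator (probe at chr3:134936387-134936446, mm9). Its log2 ratios were -1.90, -2.46, -3.33 and -2.17 at 4 days, against -0.68, -1.67, -1.52 and -1.80 in untreated tumours. The groups did not overlap, although the 4-day tumour at -1.90 and the untreated one at -1.80 were close, and the difference was -1.05 ± 0.31 (SE, limma adjusted p = 0.109, n = 4 each). Ndc80 and Nuf2 pair in the complex that grips the microtubule and differed by -0.72 and -0.86. Cenpa, the histone H3 variant that marks centromeres, differed by -0.45.

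The 4 spindle checkpoint genes differed by -0.82 to -0.24. Mad2l1 encodes Mad2, which inhibits Cdc20 (probe at chr6:66490836-66490895, mm9), and had log2 ratios of -2.23, -2.60, -2.84 and -2.20 at 4 days, against -1.25, -1.88, -1.72 and -1.85 in untreated tumours. All 4-day tumours were below all untreated tumours, and the difference was -0.79 ± 0.20 (SE, limma adjusted p = 0.0706, n = 4 each). The other, dimmer probes of Mad2l1 gave -0.14 and -0.33. Bub1 differed by -0.82, Bub1b, a further arm of the checkpoint, by -0.49 and the kinase gene Ttk by -0.24, all with overlapping groups. The Ttk probe was above background on 11 of 16 arrays, with 1 of 4 at 4 days against 4 of 4 in untreated tumours.

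The 4 anaphase genes had the median nearest to 0 of the 8 roles, -0.40, and all overlapped between the groups. Cdc20, which activates the APC/C, differed by -0.38, and Ube2c, the ubiquitin-conjugating enzyme that works with it, by -0.50. Espl1, which encodes separase, differed by -0.43, and Pttg1 had the values given above.

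All 5 spindle motor and assembly genes were below 0 at 4 days, with a median of -0.57. Tpx2 brings Aurora A to spindle microtubules (probe at chr2:152719476-152719535, mm9) and had log2 ratios of -2.32, -2.97, -3.13 and -2.15 at 4 days, against -1.29, -2.21, -1.74 and -2.10 in untreated tumours. The untreated tumour at -2.21 lay within the 4-day range, and the difference was -0.81 ± 0.24 (SE, limma adjusted p = 0.112, n = 4 each). The other, dimmer probe of Tpx2 gave -0.29. Kif11, the motor that pushes spindle poles apart, differed by -0.57, and Hmmr, a spindle assembly factor, by -0.31.

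The midzone and cytokinesis genes differed by -0.92 to -0.59. Anln encodes anillin, a scaffold of the contractile ring (probe at chr9:22136685-22136744, mm9), and had log2 ratios of -1.68, -2.02, -1.82 and -1.92 at 4 days, against -0.77, -1.48, -1.22 and -1.51 in untreated tumours. The groups did not overlap, and the difference was -0.62 ± 0.18 (SE, limma adjusted p = 0.110, n = 4 each). Kif23 and Racgap1 form centralspindlin and differed by -0.59 and -0.74, and Ect2, the exchange factor that centralspindlin recruits, by -0.81.

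Mki67 encodes Ki-67, which coats mitotic chromosomes and is the common histological mark of dividing cells (probe at chr7:142881591-142881650, mm9). Its log2 ratios were -1.42, -2.19, -2.04 and -0.98 at 4 days, against -0.54, -1.69, -0.52 and -1.17 in untreated tumours. The groups overlapped widely, and the difference of -0.68 ± 0.44 (SE, limma adjusted p = 0.482, n = 4 each) had the largest standard error of the members. Its other probe gave -0.71. Top2a, the topoisomerase that disentangles sister chromatids, differed by -0.73 with no overlap.

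At 60 days the members were nearer to the untreated level. Of 39 members 38 were below 0 (49.8% of all genes were), with a median of -0.28 against 0.00092 over all genes, and the exception was Ttk at 0.081. No member was called by limma (180 genes, 0.818% of all, were; smallest adjusted p of a member 0.141), 7 were lower at an unadjusted p under 0.05 (8.92% of all genes), and 4 did not overlap with untreated tumours (6.39% of all genes). With slide as a block 0 members were called, and 1.61% of all genes passed as lower in that fit. On slide 1 36 members were below 0 (49.1% of all genes) with a median of -0.20, and on slide 2 38 were (50.6%) with a median of -0.42. The 7 were Birc5 and Incenp of the passenger complex, Ndc80 and Nuf2 of the kinetochore, Bub1 and Mad2l1 of the checkpoint, and Prc1. Without untreated replicate 1 the median was -0.14 and 33 members were below 0, and without untreated replicate 2 it was -0.42.

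Birc5 had log2 ratios of -1.78, -1.72, -2.14 and -2.43 at 60 days, with all 4 tumours below the untreated ones, and a difference of -0.79 ± 0.28 (SE, limma adjusted p = 0.165, n = 4 each). Mad2l1 had -2.24, -2.28, -1.96 and -2.41, also without overlap, and a difference of -0.54 ± 0.20 (SE). Its other probes gave -0.25 and -0.32. Cenpe had -1.96, -1.69, -2.03 and -2.36, and Tpx2 had -2.32, -2.19, -2.24 and -2.34. Both overlapped with the untreated tumours, with differences of -0.60 and -0.44, and the other Tpx2 probe gave -0.19. Ccnb2 had -1.62, -1.42, -1.61 and -1.89 and a difference of -0.42. Anln had -1.50, -1.38, -1.25 and -1.60, and Mki67 had -1.63, -1.52, -0.78 and -1.14, within the range of the untreated tumours or just past its edge, with differences of -0.19 and -0.29.

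In resistant tumours 38 of 39 members were below the untreated level (47.8% of all genes were), with a median of -0.49 against 0.011 over all genes, and the exception was Pttg1. No member was called by limma (4 genes, 0.0182% of all, were; smallest adjusted p of a member 0.211), nor with slide as a block, where 0.0364% of all genes passed as lower. An unadjusted p under 0.05 was reached by 18 members, all lower (5.91% of all genes), and 5 members did not overlap (2.74% of all genes), namely Ccnb2, Aurka, Birc5, Incenp and Prc1. Without untreated replicate 1 the median was -0.32, and without resistant replicate 1 as well, a setting added after the data had been seen, it was -0.25.

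The resistant tumours fell into pairs. On slide 2 the median of the members was -0.86 against the untreated tumours, with 38 of 39 below 0 (50.6% of all genes), whereas on slide 1 it was -0.10, with 29 of 39 below 0 (48.7% of all genes). Mki67 had log2 ratios of -2.63 and -2.55 in the resistant tumours of slide 2, against -0.54 and -1.69 in the untreated tumours of that slide. On slide 1 it had -0.69 and -1.03 in the resistant tumours, against -0.52 and -1.17 in the untreated ones. Ect2, chosen after its values were seen, had -3.11 and -2.99 in the resistant tumours of slide 2 and -1.52 and -2.10 in those of slide 1. Birc5 was below the untreated tumours in both pairs, with -2.16 and -2.39 on slide 2 and -1.89 and -1.87 on slide 1, and it had an overall difference of -0.85 ± 0.28 (SE, limma adjusted p = 0.312, n = 4 each). The title codes of the resistant tumours follow the slides, so title code and slide cannot be told apart, and the difference between the pairs was not tested.

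Of the other members described tumour by tumour, all but Pttg1 were lower in both resistant tumours of slide 2 than in both of slide 1. Ccnb2 had log2 ratios of -1.92, -1.97, -1.64 and -1.63 in resistant tumours and did not overlap with the untreated tumours, with a difference of -0.57 ± 0.24 (SE). Cenpe had -2.51, -2.53, -1.98 and -1.78, with a difference of -0.79. Mad2l1 had -2.50, -2.70, -1.87 and -2.13, with a difference of -0.62, and its other probes gave -0.059 and -0.15. Tpx2 had -2.66, -2.72, -2.17 and -2.19, with a difference of -0.60, and its other probe gave 0.053. Anln had -2.04, -1.84, -1.27 and -1.61, with a difference of -0.45.

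**Figure D4:**
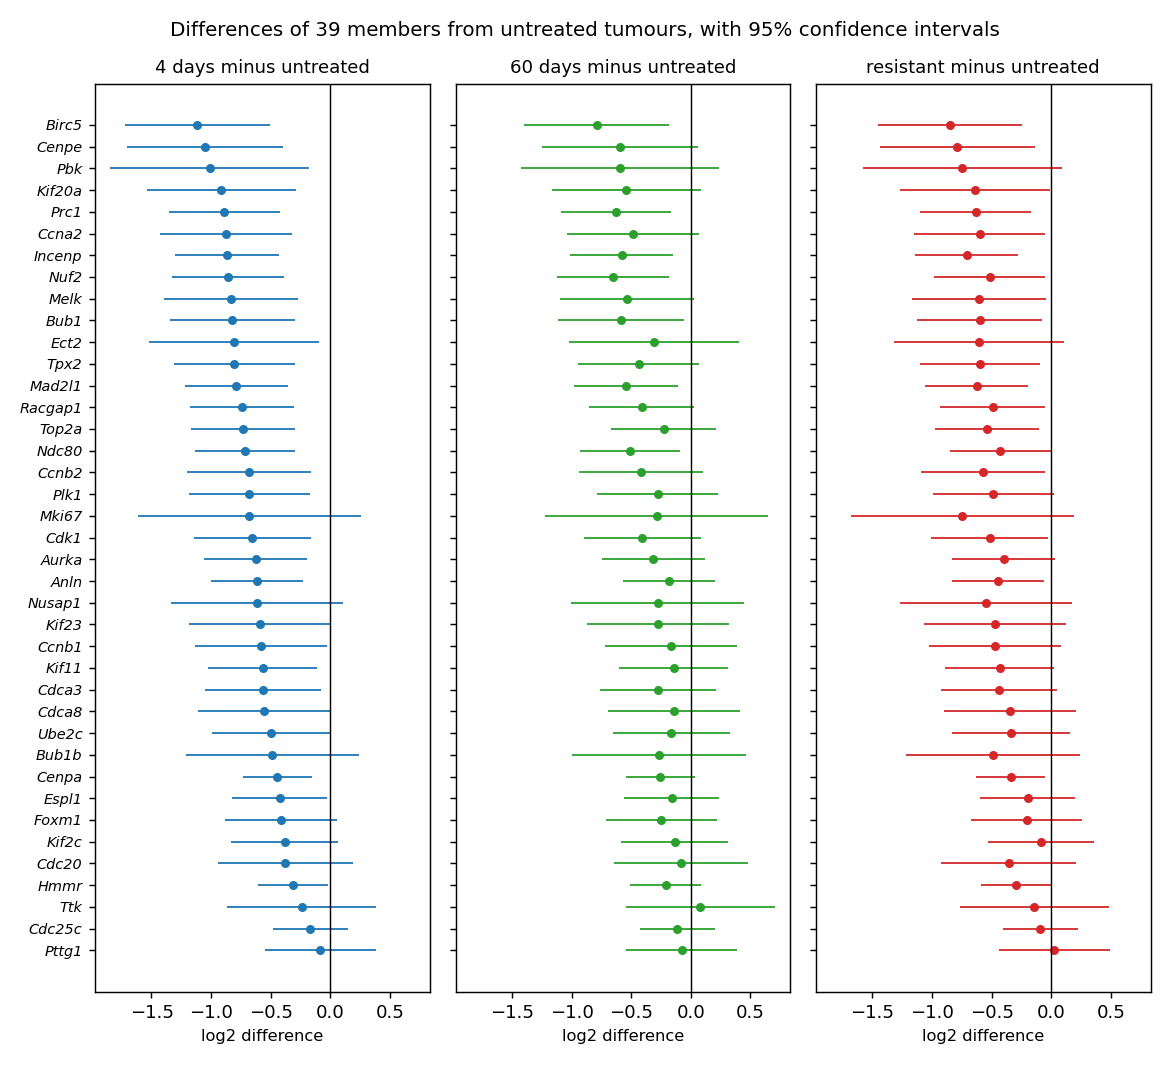
Log2 differences from untreated tumours (points) with 95% confidence intervals from limma (lines) for the 39 measured members, in order of the 4-day difference, with 4 against 4 arrays in each panel. All points lie below 0 at 4 days, and all but one do at 60 days and in resistant tumours, while many intervals in the 60-day and resistant panels cross 0.

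**Figure D5:**
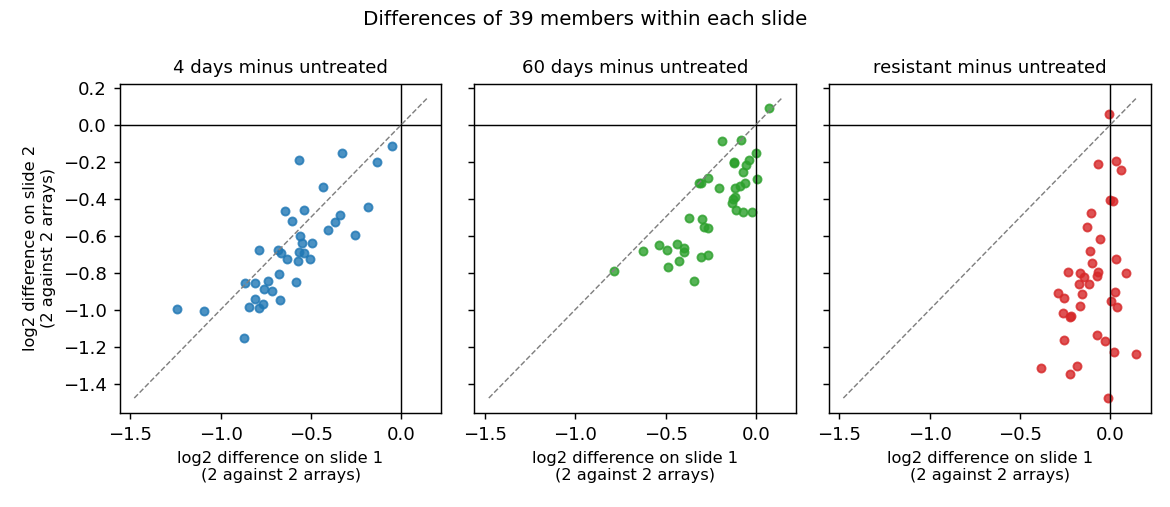
Each point is a member's log2 difference from untreated tumours within slide 1 (horizontal axis) and within slide 2 (vertical axis), 2 against 2 arrays each, and the dashed line marks equal differences. At 4 days the points lie along the dashed line, and in resistant tumours all but that of Pttg1 lie between -1.48 and -0.20 on slide 2, nearer to 0 on slide 1.

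Levels differed between the slides for some members, a smaller share than over all genes. The slide term of the block fit was called for 8 of 39 members (20.5%), against 28.3% of all genes. Ttk, Pbk, Mki67 and Bub1b were lower on slide 2 than on slide 1 by 0.74, 0.74, 0.73 and 0.67 log2, and the term was -0.26 for Cdc25c. Foxm1, Pttg1 and Prc1 were higher on slide 2 by 0.45, 0.44 and 0.40. Each group had 2 arrays on each slide.

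Between the treated groups no member was called. Resistant tumours were above 4-day tumours for 37 of 39 members, with a median of 0.20, where 48.1% of all genes were below 0. That median was 0.043 without 4-day replicate 3 (13 members below 0), 0.071 without resistant replicate 3 (12 below 0) and 0.11 without resistant replicate 4 (6 below 0). No member reached an unadjusted p under 0.05, which 4.44% of all genes did downward and 3.75% upward (limma called 1 gene, 0.00455% of all). The within-slide medians were 0.52 on slide 1 and -0.15 on slide 2. Resistant tumours were below 60-day tumours for 33 of 39 members, with a median of -0.13, where 50.6% of all genes were below 0. Leaving out resistant replicate 1, 2, 3 or 4 in turn gave -0.061, -0.040, -0.22 and -0.22. Again 0 members reached an unadjusted p under 0.05, which 3.11% of all genes did downward and 2.56% upward (limma called 0% of all genes), and the within-slide medians were 0.14 and -0.42. Tumours at 60 days were above those at 4 days for all 39 members, with a median of 0.31, where 45.6% of all genes were below 0 and limma called 0% of all genes. Without 4-day replicate 3 that median was 0.17. Anln (0.43) and Top2a (0.51) reached an unadjusted p under 0.05, against 0.973% of all genes that did so upward and 0.9% downward, and Anln was the 1 member without overlap (0.827% of all genes). With slide as a block, limma called 0 members in each of these 3 comparisons, where for resistant minus 4 days 0.0227% of all genes passed as lower and 0.0136% as higher, and for 60 days minus 4 days 0.00455% as higher. In the F-test over the 4 groups 0 members were called, 16 reached an unadjusted p under 0.05, and 0.268% of all genes were called. With slide as a block 0 members were called by that test, 20 reached an unadjusted p under 0.05, and 0.959% of all genes were called.

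Averaged over both slides, the order of the group means was the same for most members. The mean was lowest at 4 days for 37 of 39 members and highest in untreated tumours for 37, and 30 had the full order of 4 days lowest, then resistant, then 60 days, then untreated. For the mean over the 39 members, this full order held on neither slide alone. On slide 1 resistant tumours lay above 60-day tumours (-1.60 against -1.73), and on slide 2 they were the lowest group (-2.16). Untreated tumours were the highest group on both slides. The group means share their samples across comparisons, and in the reported fit no member passed the test in any of the 6 comparisons.

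Several members have more than 1 probe, and these did not always tell the same story. Of 13 members with several kept probes, 1 had probes of opposite sign at 4 days, 1 at 60 days and 3 in resistant tumours. The 3 probes of Cdk1, the kinase at the centre of the set, gave differences from -0.66 to -0.0028 at 4 days and from -0.52 to 0.26 in resistant tumours. The probe at -0.0028 and 0.26 was the dimmest, with a mean log2 intensity of 6.66 against 10.86 for the reported probe. The remaining probe, at 8.06, gave -0.53 and -0.42. The brightest probe is the one reported for each gene.

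Other genes of the cell division machinery had differences of like sign at 4 days. Of 30 measured further kinetochore and checkpoint genes, 30 were below 0 and 2 were called lower, and of 32 further spindle and centrosome genes, 30 were below 0 and 3 were called lower. Of 17 condensin and cohesin genes 15 were below 0, of 14 genes of the APC/C 11 were, and of 17 other regulators of entry and exit 13 were, with no gene called in these lists. The DNA replication genes had 8 of 42 called lower, and the G1 cyclins and their kinases 4 of 7. In all, 18 of 192 measured genes of 9 lists were called lower by limma at 4 days, 4 at 60 days and 0 in resistant tumours. Of all 22000 genes 204, 103 and 2 were called lower. With slide as a block 34, 16 and 1 genes of the lists were called lower, where 430, 354 and 8 of all 22000 genes were. The count of 18 at 4 days rested on single tumours and on the processing. It was 1 without untreated replicate 1 (61 genes called in all) and likewise without untreated replicate 2 (48). It was 2 without untreated or 4-day replicate 4 (45 and 53), and 29 without resistant replicate 1 (706). Of the 16 arrays, leaving out 13 moved it by more than 1.5 times, and the exceptions were untreated replicate 3 and resistant replicates 2 and 3. Median centring in place of loess left 1 gene of the lists called (12 genes in all), and the processed signals of Feature Extraction 6 (131).

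Spc25, a partner of Ndc80 and Nuf2 in the same complex, fell by 1.35 log2 at 4 days (SE 0.27, limma adjusted p = 0.0331, n = 4 each). Ckap2, a spindle protein, fell by 1.01 (SE 0.23, adjusted p = 0.0454), and Haus3, a subunit of the augmin complex that branches microtubules, fell by 0.70 (SE 0.13, adjusted p = 0.0262). Ccnd1, the cyclin D1 gene downstream of ERK, fell by 2.40 (SE 0.30, adjusted p = 0.00224). Ccnd3 and Ccnd2 fell by 1.37 and 0.96, and E2f1, the transcription factor that RB holds in check before S phase, by 0.83. Chaf1a, a chromatin assembly factor, fell by 0.72. At 60 days Haus3, E2f1, Mcm3 and Rfc2 were called lower, with E2f1 at -0.88. In resistant tumours the differences of E2f1 (-0.69) and Ccnd1 (-0.87) did not pass the test (limma adjusted p = 0.105 and 0.337).

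Among 11 cyclin-dependent kinase inhibitors and other antiproliferative genes limma called 0 at 4 days. At an unadjusted p under 0.05, 4 were lower, where 8.71% of all genes were, and 2 were higher, where 1760 of 22000 genes were. Cdkn1b, which encodes p27, had a difference of 0.46 ± 0.14 (SE, adjusted p = 0.132), and passed with slide as a block (adjusted p = 0.0224, 0.927% of all genes called higher in that fit). In that same fit 1 gene of the list was called lower, where 1.95% of all genes were. Cdkn1a, which encodes p21, had a difference of 0.14. Cdkn2a had a difference of -1.68 with overlapping groups.

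The genes outside the set whose level most resembled the members' mean over the 16 arrays were Shcbp1, Trip13, Sgo1, Tacc3, Ska1, Cdca2, an intergenic transcript, Spc24, Aspm and Cenpk, with Pearson correlations from 0.98 to 0.95. Of the 100 most alike genes, 50 were in the 9 lists of other cell cycle genes, which make up 0.874% of all genes. The median correlation over all 21961 other genes was 0.031. These values describe 16 points that share libraries and slides.

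Lists of markers of other cell types were measured on the same arrays, and few of their genes passed the test. Their levels are log2 ratios against the reference, as the median over a list on each array. The hair follicle list (17 measured) lay between 3.89 and 5.15 at 4 days, between 4.49 and 4.85 at 60 days and between 1.27 and 4.34 in resistant tumours, against 1.47 to 4.18 in untreated tumours, and 17 of 17 markers were above 0 in the difference at 4 days, with a median of 1.59. None of the 17 was called in any comparison with untreated tumours. The melanocyte list (9 measured) had a median difference of 1.00 at 4 days, 1.02 at 60 days and -0.012 in resistant tumours, with 1, 0 and 0 markers called higher, where 92, 77 and 2 of 22000 genes were. Its level lay between 1.89 and 3.71 at 4 days, between 2.52 and 3.38 at 60 days and between 1.37 and 3.15 in resistant tumours, against 1.72 to 2.05 in untreated tumours. The macrophage list (7 measured) had median differences of -0.43, -0.50 and -0.17, and the fibroblast list (9 measured) of -0.41, -0.72 and -0.59, with no marker called. Of 9 T and NK cell markers 1 was called lower at 4 days and 1 at 60 days, where 204 and 103 of 22000 genes were. The adipocyte list (7 measured) lay between 1.22 and 3.76 at 4 days, between 1.88 and 3.19 at 60 days and between 1.65 and 2.88 in resistant tumours, against 1.77 to 2.76 in untreated tumours. Its median differences were 0.58, with 7 of 7 markers above 0, then 0.21 and -0.025, with no marker called. At 4 days the median differences of the epidermis, skeletal muscle, endothelium, B cell and erythroid lists were 0.35, 0.25, 0.082, -0.15 and -0.051, with no marker called. In the resistant pairs the erythroid list (3 measured) stood at 3.52 and 4.21 on slide 2 and at 2.07 and 2.29 on slide 1. The endothelium list (6 measured) stood at 2.47 and 2.58 on slide 2 and at 1.44 and 1.79 on slide 1. Untreated tumours had 2.83 and 2.19 against 1.63 and 1.61 for the erythroid list, and 2.03 and 2.12 against 1.32 and 1.77 for endothelium. Other lists also split the resistant pairs, such as macrophage (2.10 and 1.19 against 0.82 and 0.66) and hair follicle (1.27 and 3.30 against 3.71 and 4.34). The part of these shifts in the differences of the mitosis genes was not tested.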

How the data were processed

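The deposited scanner tables give mean spot and median background intensity in both dyes. Per the file headers they come from Agilent Feature Extraction 10.7.3.1, which also wrote processed signals, a log10 ratio of Cy5 over Cy3 and other columns with a flag for each spot. The authors' deposited value table holds log2 ratios. Set against the Feature Extraction ratios in log2, they had a slope of 0.993.

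Background was removed here by normexp (offset 50), ratios were normalized by loess within each array with control spots at weight 0, and outlier spots (0.155% of values) were left out, with limma 3.58.1 in R 4.3.3. The 59305 spots gave 55681 probes, and 30501 with Cy5 above background on at least 4 of 16 arrays were kept. The brightest probe stood for a gene, which gave 22000 genes and transcripts. The 4 groups were fitted in 1 limma model, with Benjamini-Hochberg adjustment over all 22000 in each of 6 comparisons and a threshold of 0.05. A difference is a log2 difference between group means, and the number of arrays limits its precision. The fit was tested on simulated data.

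The members and lists were chosen with earlier results of these data known. Members described tumour by tumour are the brightest of each of 8 roles and those with the largest and smallest differences. Of the other lists, called genes are named, at most 8 per comparison, with Ccnd1 and inhibitors of the kinases. Alternatives covered slide, normalization, background, filter, probes, array weights, title codes and leaving out each array. Coordinates of probes are copied from the array's annotation (mm9).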

Additional observations from a re-analysis of the deposited data

How the results depend on the processing

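The 6 median differences of the members kept their direction under every other setting tried, except that resistant minus 60 days was 0.14 on slide 1 alone and resistant minus 4 days was negative on slide 2 alone. On slide 1 alone the medians were -0.10 for resistant minus untreated and 0.52 for resistant minus 4 days, and on slide 2 alone they were -0.86, -0.15 and, for resistant minus 60 days, -0.42. The count of members called at 4 days, 0 as reported, was 6 with slide as a block (634 genes called in all), 9 with Cy5 alone (527) and 6 with array weights (4674). It was 1 with Cy5 above background on all 16 arrays (36 members left, 271 genes in all) and 1 with the mean of all probes (311). With median centring in place of loess it was 0 and limma called 12 genes in all, against 296 as reported. Leaving out each of the 16 arrays gave 0 to 3, with 3 without resistant replicate 1 (706 genes in all) and 2 without untreated replicate 3 (680). Of settings added after the data had been seen, slide as a block gave 2 on the processed signals of Feature Extraction (367 genes in all) and 2 on the deposited value table (323). Leaving out a 4-day or untreated array from the block fit, added likewise, gave 0 to 5 members (89 to 1779 genes in all). The count was 4 and 5 without 4-day or untreated replicate 3 (1779 and 1081), and 0 without untreated replicate 4 (94). Array weights also called 4 members at 60 days, 1 in resistant tumours and 1 in the F-test, where 5192, 1982 and 4232 genes were called in all. Slide as a block with median centring gave 0 members (smallest adjusted p 0.241). The title code as a random block called 54 genes at 4 days and 14 at 60 days, against 296 and 180 as reported, with 0 members (smallest adjusted p 0.131). The count of other cell cycle genes called at 4 days, 18 as reported, was 36 with slide as a block, 35 with Cy5 alone, 51 with array weights, 6 on the processed signals of Feature Extraction, 5 on the deposited value table, 2 with the title code as a random block, 1 with median centring and 1 with only the 2 groups compared. This count was 1 to 29 with each array left out (45 to 706 genes in all) and 3 without untreated replicate 1 and resistant replicate 1 (202). With slide as a block it was 4 to 38 with one 4-day or untreated array left out (89 to 1779 genes in all), with 11 without 4-day replicate 4 and 7 without untreated replicate 1. With slide as a block and median centring it was 1 (38). The cause of these changes was not tested.

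The differences of Pttg1, which lay near 0, turned sign under several settings. At 4 days it was 0.063 with Cy5 alone, from -0.28 to 0.063 with each array left out, and 0.033 with slide as a block without untreated replicate 4. At 60 days it was 0.00083 on slide 1 alone, 0.057 with median centring (0.057 with slide as a block as well), 0.16 with Cy5 alone, from -0.27 to 0.0069 with each array left out, and 0.0069 without untreated replicate 1 and resistant replicate 1. In resistant tumours it was -0.0068 on slide 1 alone, -0.026 with median centring (-0.026 with slide as a block as well), -0.0076 with the mean of all probes, -0.19 with array weights, and from -0.17 to 0.14 with each array left out. With title codes as a random block the correlation within a code was 0.233. No paired analysis was possible because the replicate numbers follow accession order and pair no tumours across groups.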
